A study of Mus musculus with 8 samples.

Results

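Network and beaded-filament collagens are the matrix proteins described here, by the genes Col6a1, Col6a2, Col6a3, Col8a1, Col12a1, Col15a1 and Col18a1. The 7 genes were listed by name, and for each the RefSeq transcript row with the highest total count was used. Of the 7 listed, 6 were matched to a row among 23483 counted genes. Col12a1 (chr9:79598987-79721141, GRCm38.p6) could not be paired with a row through the reference tables and was not analysed here. Of the 6 matched genes, 5 passed the filter on low counts and were tested. Col15a1 did not pass it.

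The series asked what the lysine methyltransferase Set7, the product of Setd7, does as mouse embryonic stem cells turn into smooth muscle cells. Poly(A) RNA of 8 libraries in 4 groups of 2 was sequenced, and every group carried the C57BL/6 strain label and a glucose concentration of 5.5 mM. The first group was embryonic stem cells (mESC) with no construct, and the second was Sca1 cells with no construct (untreated Sca1). The third was Sca1 cells carrying a non target shRNA control (NTC), and the last was Sca1 cells with a Set7 shRNA (knock-down). Per the labels' protocols, Sca1 cells came from stem cells grown without the self-renewal factor LIF, were captured with antibody-coated magnetic beads and were then expanded in culture. Both shRNAs were delivered by lentivirus with puromycin selection, so the knock-down and NTC cells share a history that the untreated cells lack. The knock-down rests on a single shRNA sequence. Nothing in the labels says whether the libraries of a group came from separate cultures, and p-values here measure only the spread between these samples, which may be technical. These are bulk samples, in which fewer cells of a type and less RNA per cell cannot be told apart.

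Collagens are built from 3 polypeptide chains wound into a triple helix. Unlike the fibrillar collagens, the proteins described here do not form banded fibrils. Col6a1, Col6a2 and Col6a3 encode 3 of the alpha chains of type VI collagen. These 3 join in a single monomer and assemble into beaded microfilaments around cells. Col8a1 encodes a chain of type VIII collagen, a short-chain collagen that forms networks and is made in blood vessel walls by smooth muscle and endothelial cells. Col15a1 and Col18a1 encode the multiplexins, basement membrane collagens that carry sugar side chains, and the end of the Col18a1 product can be cut off as the fragment endostatin. Col12a1 encodes a collagen that sits on the surface of fibrils.

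Levels are counts scaled by TMM to library size and expressed as CPM, and a group value is the mean ± SD of n = 2 libraries. Differences are log2 fold changes with their standard error (SE). Each adjusted p comes from edgeR's quasi-likelihood test over all 13966 tested genes with Benjamini-Hochberg adjustment, and a gene is said to rise or fall where it is at most 0.05. Counts summed over genes ran from 2507938 to 5080266 per library. One row, NR_046233, took 11.5% of the counts of mESC replicate 2 and 12.0% of untreated Sca1 replicate 2, and both of these libraries carry the code 56 in the labels. Both the mESC and the untreated Sca1 pair of replicates lay much farther apart than counting noise, with a chi-square of 49.7 and 36.9 for each degree of freedom, whereas knock-down replicates had 1.99 and NTC replicates less. These values used unscaled counts with NR_046233 among the genes, and that row took only 0.73% of mESC replicate 1. The part of the chi-square due to that row was not separated, so it does not measure disagreement spread over all genes. Setd7 stood at 63.7 ± 4.18 CPM in NTC and 12.4 ± 2.29 CPM in knock-down cells (log2 -2.39 ± 0.20 SE, edgeR adjusted p = 1.71e-07). Ly6a, which encodes the Sca1 sort marker, averaged 8.70 CPM after the sort and 7.78 CPM in mESC, a difference that did not pass (edgeR adjusted p = 0.671).

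The genes lie on several chromosomes, and 3 of them are neighbours. In GRCm38.p6 coordinates Col6a2 (NM_146007, chr10:76595756-76623630) ends 85162 bases before Col6a1 (NM_009933, chr10:76708792-76726044) begins. Col18a1 (NM_009929, chr10:77052178-77166530) begins 326134 bases beyond the end of Col6a1. Col6a3 (NM_001243008, chr1:90766860-90844001), Col8a1 (NM_007739, chr16:57624256-57754737) and Col15a1 (NM_009928, chr4:47207655-47313167) lie elsewhere. No gene with a counted row overlapped any of them. The values describe whole genes, from the exons of the RefSeq transcript named.

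The sequences directly upstream of the transcription start are shown for 4 genes because 3 of them (Col6a2, Col6a3 and Col8a1) fell in knock-down cells while Col18a1 did not pass the test there. All are on the minus strand, are printed 5' to 3' and come from RefSeq (GRCm38.p6). They end just before the transcription start, and Col18a1 is cut where the GENCODE vM21 start lies farther upstream. The Col6a3 start used lies inside the gene's RefSeq span, which reaches chr1:90844001, so its last printed bases fall within that span. Capitals mark matches to the motifs listed below on either strand. The windows are chr10:76623631-76623880, chr1:90843972-90844221, chr16:57754738-57754987 and chr10:77166549-77166780 in the order shown.
Col6a2: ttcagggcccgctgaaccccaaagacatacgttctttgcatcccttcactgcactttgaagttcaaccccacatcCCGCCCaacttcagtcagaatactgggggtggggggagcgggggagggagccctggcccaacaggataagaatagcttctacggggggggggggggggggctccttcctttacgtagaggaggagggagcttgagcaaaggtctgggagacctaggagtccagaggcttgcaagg
Col6a3: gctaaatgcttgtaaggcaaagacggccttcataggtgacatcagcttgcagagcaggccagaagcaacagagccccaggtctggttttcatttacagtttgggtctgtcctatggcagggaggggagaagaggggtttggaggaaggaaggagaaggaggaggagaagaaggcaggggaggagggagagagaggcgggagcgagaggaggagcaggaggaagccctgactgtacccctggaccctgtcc
Col8a1: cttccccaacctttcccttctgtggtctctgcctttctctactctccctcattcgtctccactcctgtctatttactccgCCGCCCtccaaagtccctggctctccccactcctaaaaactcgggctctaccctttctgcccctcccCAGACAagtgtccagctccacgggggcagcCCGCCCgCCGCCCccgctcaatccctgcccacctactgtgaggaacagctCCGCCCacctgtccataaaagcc
Col18a1: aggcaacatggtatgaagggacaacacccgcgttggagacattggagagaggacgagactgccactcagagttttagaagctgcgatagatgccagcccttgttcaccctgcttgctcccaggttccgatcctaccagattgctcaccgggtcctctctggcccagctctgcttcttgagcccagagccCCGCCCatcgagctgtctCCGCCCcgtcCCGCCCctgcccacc

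Motifs were searched on both strands in windows of 300 bases, 250 before and 50 after the start, and shares are over 32851 RefSeq promoters of that length. The GC box GGGCGG, bound by Sp factors, was present in 35.7% of all promoters. Col8a1 held 4 of them, with first bases at -170, -73, -66 and -23 from the start. Col18a1 held 3, at -61, -43 and -33, and Col6a2 held 1, at -175. A second annotated start of Col6a2, farther downstream, held 2 GC boxes and 1 match to the TEAD motif GGAATG. In capitals they read CCGCCC because the match is on the opposite strand, and no match overlapped another. Col8a1 also held CAGACA, a motif read by SMAD proteins, at -103, found in 21.0% of promoters. Col6a1 held TGACTCA, a match to the AP-1 motif TGANTCA, at -90, and 7.81% of promoters hold that motif. That stretch is not printed because GENCODE places the start of Col6a1 upstream of the match. The Col6a3 window had no match to these motifs, to GGAATG (14.7% of promoters), to TATAAA (13.6%) or to the CArG box (1.63%). GC boxes were therefore present both in genes that fell and in Col18a1. A further start of Col18a1, farther downstream in the gene, held 2 matches to GGAATG, 1 to CAGACA and no GC box.

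The 3 listed type VI chains were nearly absent from stem cells and rose in untreated Sca1 cells. They stood highest in NTC cells and were low in knock-down cells. Other type VI genes, which are not members, did not share this pattern. Col6a4, Col6a5 and Col6a6 averaged 5.57, 13.4 and 9.27 CPM in mESC, with Col6a6 libraries at 1.60 and 16.9 CPM. Col6a4 and Col6a5 fell from mESC to untreated Sca1 cells (edgeR adjusted p = 0.0315 and 0.0438). None of these other genes passed between knock-down and NTC cells. Between knock-down and NTC cells the 95% intervals of Col6a1 (-5.54 to -3.97) and Col6a2 (-2.69 to -1.10) did not meet. Col6a1, the alpha 1 chain, had 1 and 3 counts in the mESC libraries, which is 0.229 and 0.660 CPM. In untreated Sca1 cells it stood at 13.0 and 9.72 CPM, and the NTC libraries held 28.1 and 24.7 CPM, against 1.05 and 0.879 CPM in the knock-down. The 2 knock-down libraries lay above the mESC libraries and far below both other Sca1 groups, and no groups overlapped. In order, the group means were 0.445 ± 0.305, 0.965 ± 0.121, 11.3 ± 2.31 and 26.4 ± 2.39 CPM for mESC, knock-down, untreated Sca1 and NTC. Col6a1 rose by 4.59 ± 0.48 on the log2 scale from mESC to untreated Sca1 cells (edgeR adjusted p = 8.22e-07). It fell by 4.76 ± 0.37 in knock-down against NTC cells (edgeR adjusted p = 5.83e-08). The lowest neighbours in the order did not differ beyond their spread: knock-down against mESC was 1.02 ± 0.77, on 7 against 4 counts (edgeR adjusted p = 0.392).

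**Figure D1:**
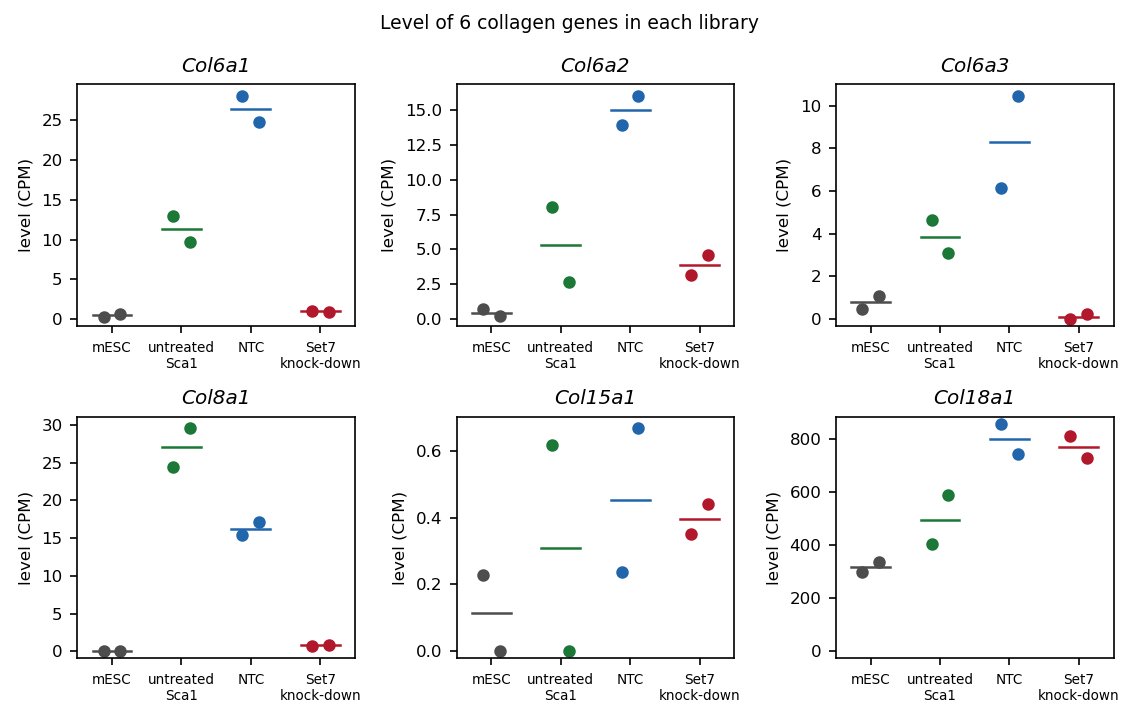
Level in CPM (vertical axis, own scale for each gene) of the 6 matched collagen genes in the 2 libraries of each group (horizontal axis). Points are libraries and bars are group means. Col6a1, Col6a2, Col6a3 and Col8a1 drop from NTC to knock-down cells, Col18a1 overlaps between the 2 groups at 726 to 855 CPM, and Col15a1 has group means of at most 0.453 CPM.

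Col6a2, the alpha 2 chain, had 0.687 and 0.220 CPM in mESC, which became 8.04 and 2.65 CPM in untreated Sca1 cells. It stood at 13.9 and 16.0 CPM in NTC and at 3.15 and 4.62 CPM in knock-down cells. The knock-down libraries overlapped the untreated Sca1 libraries, which were themselves far apart, and lay below both NTC libraries. Col6a2 rose by 3.57 ± 0.66 from mESC to untreated Sca1 cells (edgeR adjusted p = 0.000421) and fell by 1.90 ± 0.38 in knock-down against NTC cells (edgeR adjusted p = 0.00202). Without knock-down replicate 1 the second of these no longer passed (edgeR adjusted p = 0.0550). It stayed above the stem cell level: knock-down exceeded mESC by 3.07 ± 0.68, on 30 against 4 counts (edgeR adjusted p = 0.00268), although this was lost without knock-down replicate 2 (edgeR adjusted p = 0.0666). Against untreated Sca1 cells the knock-down differed by -0.50 ± 0.46, with a 95% interval from -1.46 to 0.46 (edgeR adjusted p = 0.502), and without untreated Sca1 replicate 1 that value turned to 0.60.

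Col6a3 encodes the alpha 3 chain, the longest of the type VI chains. It had 2 and 5 counts in mESC, 15 and 7 in untreated Sca1, 26 and 47 in NTC, and 0 and 1 in knock-down cells. Group means were 0.779 ± 0.454, 3.86 ± 1.09, 8.31 ± 3.06 and 0.110 ± 0.155 CPM in that order, and no groups overlapped. It was the only matched gene with an empty knock-down library, where 3 counts, the limit that a count of 0 allows, would be 1.05 CPM. Col6a3 rose by 2.29 ± 0.63 from mESC to untreated Sca1 cells (edgeR adjusted p = 0.00863), but not without untreated Sca1 replicate 1 (edgeR adjusted p = 0.107). The knock-down held 1 count against 73 in NTC cells, a ratio 62.0-fold lower with a 95% exact counting interval of 10.8 to 2482 (edgeR adjusted p = 4.17e-05). Counting intervals and limits cover counting error only. The knock-down's 1 count against 7 in mESC did not pass (edgeR adjusted p = 0.174).

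Because the chains are counted on transcripts of different length, their shares were compared per kilobase of transcript. Shares and counts here cover Col6a1, Col6a2 and Col6a3 only, without Col6a4, Col6a5 and Col6a6. In NTC cells Col6a1 made 58.1% of the 3 chains' summed CPM per kb, Col6a2 34.4% and Col6a3 7.49%. Untreated Sca1 cells were alike, with 60.3%, 31.3% and 8.41%. In knock-down cells Col6a2 made 80.8%, Col6a1 18.2% and Col6a3 1.05%, on 38 counts of these 3 chains. The ratio of Col6a1 to Col6a2 per kb was 1.94 and 1.48 with the NTC construct, against 0.321 and 0.183 with the Set7 shRNA. Both knock-down libraries thus lay below both NTC libraries. Pooled over each group the ratio was 1.69 in NTC (95% exact counting interval 1.36 to 2.11) and 0.225 in knock-down cells (0.0833 to 0.522). With 2 libraries against 2, an exact two-sided permutation test of the log2 ratio gave p = 0.333, the smallest this design allows. The 15 counts of these 3 chains in mESC are too few to order them there, with a ratio of 0.963 (0.179 to 5.17).

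**Figure D2:**
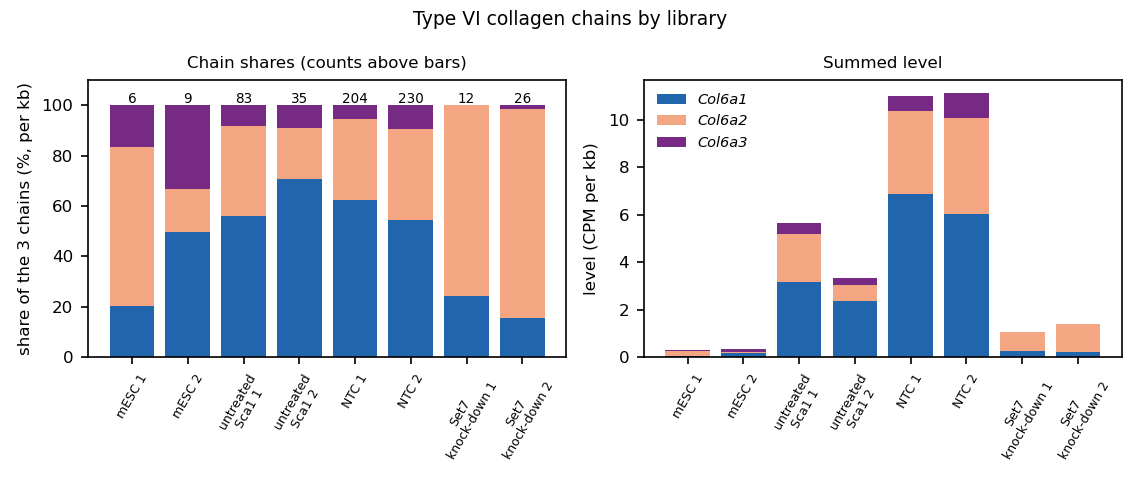
The 3 listed type VI chains in each library, without Col6a4, Col6a5 and Col6a6. Left, share of each chain in the summed CPM per kb of the 3 chains (%), with their summed counts above each bar. Right, the summed level in CPM per kb. Col6a2 makes most of the small remainder in both knock-down libraries, while Col6a1 makes the largest share in both NTC libraries.

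Col8a1, the type VIII chain, was absent from the stem cell libraries and nearly so from the knock-down. It had no count in either mESC library, 24.4 and 29.6 CPM in untreated Sca1 libraries, 15.4 and 17.2 CPM in NTC cells, and 0.700 and 0.879 CPM in the knock-down. No groups overlapped, and the order differed from that of the listed type VI chains: untreated Sca1 cells stood above NTC cells. Untreated Sca1 cells held 146 counts against 0 in mESC and were 78.9-fold higher with 3 counts taken for the mESC group (edgeR adjusted p = 5.99e-09). Such a fold makes no allowance for counting error in the higher group. Col8a1 fell by 4.28 ± 0.40 in knock-down against NTC cells (edgeR adjusted p = 9.26e-07) and by 5.00 ± 0.39 against untreated Sca1 cells (edgeR adjusted p = 2.63e-07). The knock-down still held 6 counts against 0 in mESC, 2.41-fold higher on the same reckoning (edgeR adjusted p = 0.0168). With only 6 counts this fold is not a lower bound. The call was lost without knock-down replicate 2 and without mESC replicate 1 or 2. The neighbours at the top of the order, NTC and untreated Sca1, differed by -0.72 ± 0.23 with a 95% interval from -1.21 to -0.23, which did not pass (edgeR adjusted p = 0.0889).

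Col18a1, the source of endostatin, was expressed in every group and did not pass the test between knock-down and NTC cells. Its levels were 298 and 336 CPM in mESC, 404 and 587 CPM in untreated Sca1 libraries, 855 and 742 CPM in NTC, and 809 and 726 CPM in knock-down cells. NTC and knock-down libraries overlapped, while mESC libraries were the lowest. Group means were 317 ± 26.5, 496 ± 130, 798 ± 80.3 and 768 ± 58.8 CPM in that order. Knock-down against NTC differed by -0.06 ± 0.15, with a 95% interval from -0.38 to 0.27 (edgeR adjusted p = 0.862). The rise from mESC to untreated Sca1 cells was 0.64 ± 0.16 (edgeR adjusted p = 0.00378) and did not pass without untreated Sca1 replicate 2, one of the libraries rich in NR_046233 (0.35, edgeR adjusted p = 0.0926). Knock-down cells stood 1.28 ± 0.16 above mESC (edgeR adjusted p = 1.13e-05). They stood 0.63 ± 0.15 above untreated Sca1 cells (edgeR adjusted p = 0.00896), which was lost without untreated Sca1 replicate 1 and without either knock-down library (edgeR adjusted p = 0.103, 0.119 and 0.0561). Per kilobase, Col18a1 made 88.3% to 99.5% of the summed level of the matched genes in each library. Its mean was 158 CPM per kb in NTC cells, where Col6a1 had 6.45 CPM per kb. A second transcript row of Col18a1 held 91.9% to 97.5% of the count of the row used, and its isoforms were not separated here.

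Col15a1, the other multiplexin, had 10 counts over all 8 libraries, at most 3 in any of them. Group means ran from 0.114 CPM in mESC to 0.453 CPM in NTC cells. It did not pass the filter, and no difference was detectable at this depth.

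The 5 tested genes can be set against all tested genes in each comparison. Col6a1, Col6a3 and Col8a1 had 0 to 5 counts in each mESC and knock-down library. They thus passed the low-count filter through untreated Sca1 and NTC cells, where they are high. For them a rise from mESC or a fall in the knock-down was largely set by the filter. Col6a2 had 3 and 1 counts in the mESC libraries and passed the filter through Sca1 groups, including the knock-down. For Col6a2 a higher level than in mESC was therefore largely set by the filter too. The genes were also chosen with earlier results of these data known, so the shares and medians are description only. From mESC to untreated Sca1 cells, 5 of 5 rose, where 18.7% of the 13966 genes were called higher. In NTC against mESC cells, which share the mESC libraries with that comparison, 5 of 5 were higher, where 19.6% of genes were. The median log2 fold change of the 5 genes from mESC to untreated Sca1 cells was 3.57, against -0.01 over all tested genes. In knock-down against NTC cells 4 of 5 fell, all but Col18a1, where 10.1% of genes were called lower. The median there was -4.28, against 0.00 over all tested genes. In knock-down against untreated Sca1 cells Col6a1, Col6a3 and Col8a1 were lower, where 9.89% of genes were, and Col18a1 was higher, where 7.34% were. Col6a1 was lower by 3.56 ± 0.44 (edgeR adjusted p = 2.10e-05), and Col6a3 had 1 count against 22, a ratio 29.6-fold lower (counting interval 4.79 to 1223; edgeR adjusted p = 0.00204). In knock-down against mESC cells Col6a2, Col8a1 and Col18a1 were higher, where 13.5% of genes were.

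**Figure D3:**
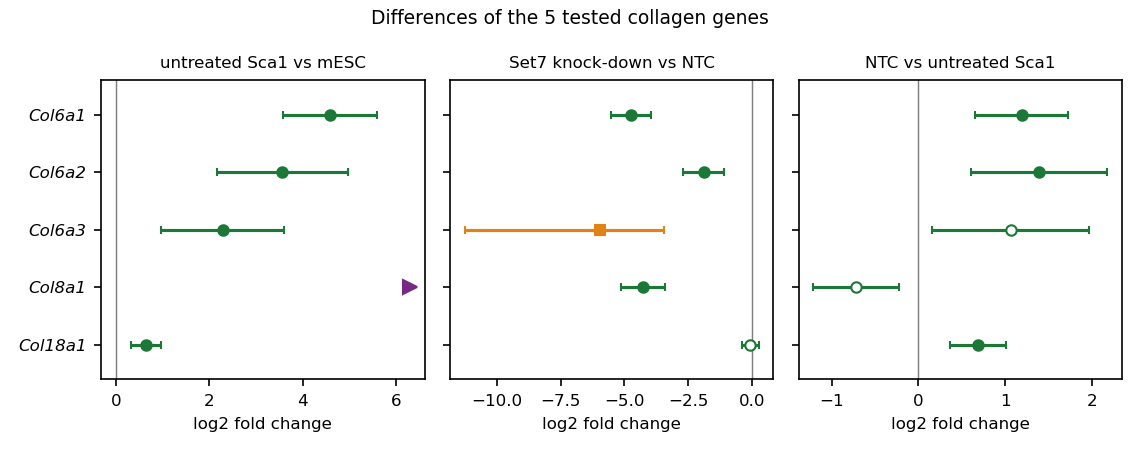
Log2 fold change (horizontal axis) of the 5 tested genes in 3 comparisons. Circles with 95% intervals are the edgeR values, filled where the adjusted p was at most 0.05. The square is the log2 ratio of counts with its exact counting interval, used where a group held 1 to 3 counts. The triangle marks the fold of Col8a1 with 3 counts taken for mESC, where it had no count. In the knock-down panel only the Col18a1 interval crosses 0.

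The libraries carry a code in the labels that groups them across conditions, and the differences were taken again within each code (log2 CPM with a prior count of 2). In knock-down against NTC cells Col6a1 differed by -4.19 within code 12 and -4.17 within code 34. Col8a1 differed by -3.70 and -3.66, Col6a2 by -1.98 and -1.69, and Col6a3 by -3.67 and -3.89. These 4 genes thus fell within each code, and Col18a1 differed by -0.08 and -0.03. Each code sets a single library against a single library. Knock-down counts of Col6a1, Col6a3 and Col8a1 were 0 to 4, where the prior count of 2 sets much of the value. The likeness in size between codes is therefore not read as a result for them. In untreated Sca1 against mESC the values within codes 34 and 56 were 4.16 and 3.11 for Col6a1, 2.82 and 2.09 for Col6a2, 2.39 and 1.15 for Col6a3, 5.57 and 5.85 for Col8a1, and 0.44 and 0.81 for Col18a1. All kept their direction, but the mESC counts of Col6a1, Col6a2, Col6a3 and Col8a1 were 0 to 5. There too the prior count of 2 sets much of the value, so these sizes are not compared between codes.

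The comparison of NTC with untreated Sca1 cells sets cells with the control vector and its selection against cells without them. In it 3 of 5 genes were higher, where 3.88% of genes were called higher. Col6a1 was higher by 1.19 ± 0.25 (edgeR adjusted p = 0.0118), Col6a2 by 1.39 ± 0.37 (0.0385) and Col18a1 by 0.69 ± 0.15 (0.0160). Col6a3, at 1.07 ± 0.43, did not pass (edgeR adjusted p = 0.168). Within code 34, the only code both groups share, the differences were 0.90 for Col6a1, 0.95 for Col6a2, 1.09 for Col6a3, 0.88 for Col18a1 and -0.50 for Col8a1. These calls rest on few libraries: with NTC replicate 1 or 2 left out none of the 3 passed, at edgeR adjusted p from 0.0806 to 0.281. With a block for the number that ends each sample description, Col6a1 (0.0618) and Col6a2 (0.0874) no longer passed. The knock-down differences from NTC cells and from untreated cells use the same knock-down libraries, and that of Col6a2 passed against NTC cells but not against untreated cells.

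Genes whose pattern over the 8 libraries was most like that of each member were found by the Pearson correlation of log2 CPM among 9356 genes with a group mean of at least 20 CPM. These correlations are descriptions over libraries that share 4 groups. Fbn2, a microfibril protein, was closest to Col6a1 (r = 0.993), followed by the Wnt receptor gene Fzd1 and Bmp1, a protease that trims procollagens. The genes closest to Col6a2 were Cpm, Tmem198b and Vegfb, and those closest to Col6a3 were Tgfbi, which encodes a secreted matrix protein, Man1c1 and Gpr180. Col8a1 was closest to Ecpas, Timp2 (an inhibitor of matrix proteases) and Paip1. Lsm14b and Lsr were close to Col18a1. No gene named here was among the nearest of more than 1 member. Among the members, Col6a1 and Col8a1 had r = 0.94, Col6a1 and Col6a3 0.92, and Col6a3 and Col18a1 0.16.

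Companion genes of collagen assembly, binding and breakdown were read beside the members. Over all tested genes 18.7% rose and 16.8% fell from mESC to untreated Sca1 cells, and 10.1% fell in knock-down against NTC cells. All counts for the companion and marker lists below stand beside these shares, and some lie near them. Of the 17 tested biosynthesis genes, 4 rose and 6 fell from mESC to untreated Sca1 cells, where 16.8% of all genes fell, and 12 of 17 were lower in knock-down than in NTC cells. Serpinh1, the collagen chaperone HSP47, stood at 463, 698, 1015 and 367 CPM in mESC, untreated Sca1, NTC and knock-down cells (knock-down against NTC -1.47 ± 0.12, edgeR adjusted p = 1.09e-07). Bmp1 stood at 15.7, 57.4, 107 and 19.7 CPM in the same order. Fkbp10, an endoplasmic reticulum prolyl isomerase, stood at 14.1, 97.7, 160 and 42.4 CPM. Crtap, a partner of prolyl 3-hydroxylase, did not pass between knock-down and NTC cells (-0.02 ± 0.12, edgeR adjusted p = 0.951).

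Of 9 tested collagen receptors, 6 rose and 1 fell from mESC to untreated Sca1 cells, and 6 of 9 fell in knock-down against NTC cells. Antxr1 and Antxr2, the anthrax toxin receptors, were among both. Antxr2 stood at 0.55, 10.6, 9.73 and 1.60 CPM in mESC, untreated Sca1, NTC and knock-down cells. Cspg4, the proteoglycan NG2 that binds type VI collagen, also rose and fell, and Itgb1, the integrin beta 1 chain, fell by 1.36 ± 0.13 in knock-down against NTC cells (edgeR adjusted p = 4.89e-07). Mrc2, an endocytic receptor that takes up collagen, went from 2.33 to 37.8 CPM and from 78.4 in NTC to 12.5 CPM in knock-down cells. Ddr1, a collagen-binding kinase, rose from mESC (1.46 ± 0.18) but did not pass in the knock-down (-0.35 ± 0.16, edgeR adjusted p = 0.174).

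Matrix partners were split in differentiation, with 5 of 12 higher and 5 lower in untreated Sca1 cells, and 7 of 12 fell in the knock-down. Biglycan (Bgn), which binds type VI collagen, stood at 1.56, 81.6, 84.5 and 9.70 CPM in mESC, untreated Sca1, NTC and knock-down cells. Fibulin 2 (Fbln2) stood at 3.81, 48.4, 78.6 and 13.5 CPM, and Nid1, which links basement membrane networks, at 351, 135, 276 and 98.1 CPM. Of the 14 other non-fibrillar or minor collagen genes tested, 6 rose and 3 fell from mESC to untreated Sca1 cells, and 5 fell in the knock-down. Among these, Col14a1, a fibril-surface collagen, fell by 2.92 ± 0.23 (edgeR adjusted p = 6.63e-08) and Col13a1, a membrane collagen, did not pass (-0.02 ± 0.23, edgeR adjusted p = 0.970). Of 5 proteases, Mmp2 and Mmp14 rose from mESC to untreated Sca1 cells and fell in the knock-down. The cathepsin genes Ctsb and Ctsl fell from mESC to untreated Sca1 cells and did not pass in the knock-down.

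Markers of several cell types moved with the collagens, and their part in the members' differences was not tested. Of 10 tested fibroblast or mesenchyme markers, 9 rose and 1 fell from mESC to untreated Sca1 cells and 9 fell in knock-down against NTC cells. Their summed level was 226 to 255 CPM in mESC, 869 to 938 in untreated Sca1, 2002 to 2059 in NTC and 189 to 197 in knock-down libraries. The list holds Col1a1, Col1a2 and Col3a1, and Postn was at 0 in both mESC and both knock-down libraries. Of 8 smooth muscle markers, 8 rose and none fell in untreated Sca1 cells, and 6 fell in the knock-down. Their sum was 40.7 to 48.3 CPM in mESC, 590 to 965 in untreated Sca1, 587 to 611 in NTC and 165 to 172 in knock-down libraries, so it did not part untreated from NTC cells. Of 8 pluripotent markers, 5 fell in untreated Sca1 cells and 2, Utf1 and Sox2, were higher in the knock-down. Their sum was 3162 to 3511 CPM in mESC, 1982 to 2209 in untreated Sca1, 1923 to 1991 in NTC and 2523 to 2596 in knock-down libraries.

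Endothelial markers were less abundant in untreated Sca1 cells, with 52.1 to 54.4 CPM against 171 to 187 CPM in mESC, and 2 of 4 tested fell. Pecam1 made most of this sum, at 163 CPM in mESC and 44.4 CPM in untreated Sca1 cells. In NTC and knock-down libraries they summed to 94.8 to 100.3 and 101 to 117 CPM, and Pecam1, an endothelial adhesion gene, differed by 0.22 ± 0.12 between them (edgeR adjusted p = 0.290). Emcn had 0, 5, 3 and 0 counts in mESC, untreated Sca1, NTC and knock-down cells, and Sox18 had 0, 3, 2 and 1. Neither was tested, and these counts are too few to part the groups. Extraembryonic endoderm markers summed to 341 to 401 CPM in mESC, 164 to 240 in untreated Sca1, 207 to 208 in NTC and 182 to 195 in knock-down libraries, and 3 of 6 fell in untreated Sca1 cells and 1, Gata4, in the knock-down. Neural markers ran from 62.7 to 66.9 CPM in mESC, 215 to 225 in untreated Sca1, 214 to 248 in NTC and 106 to 112 in knock-down libraries. Nes stood at 9.23, 168, 178 and 39.2 CPM in the 4 groups and fell in the knock-down. Tubb3, a neuronal tubulin, was higher in knock-down than in NTC cells (0.52 ± 0.14, edgeR adjusted p = 0.0207). None of 6 blood markers passed the low-count filter, and their sum was at most 4.58 CPM. The embryonic globin gene Hba-x was at 0 in every library.

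**Figure D4:**
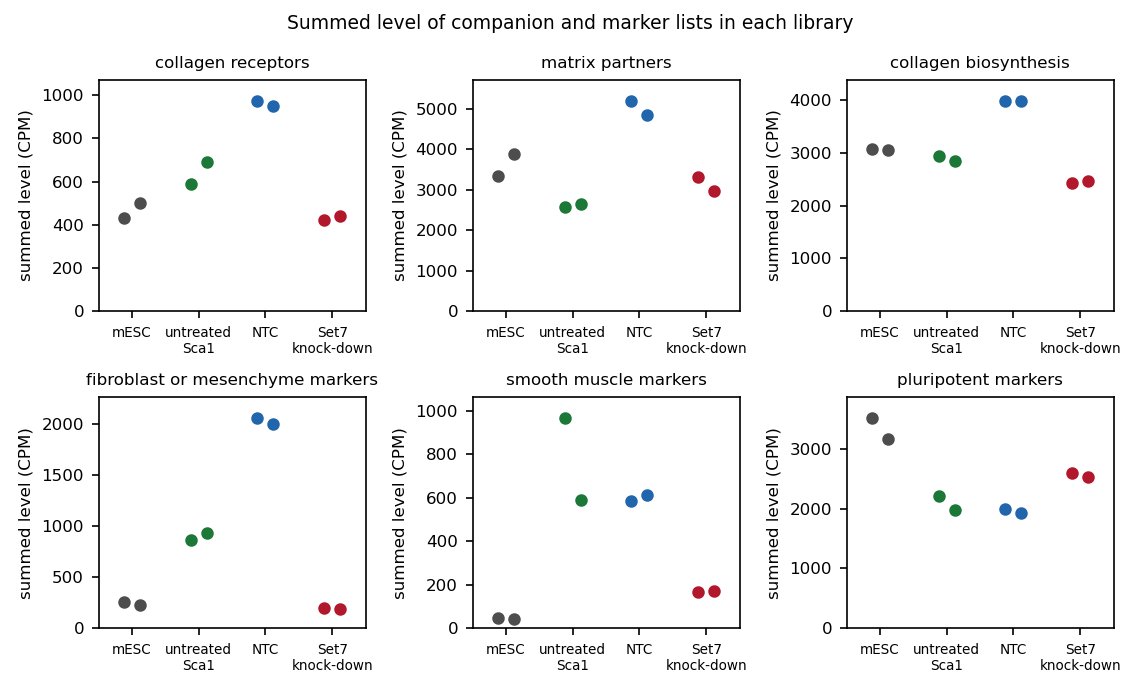
Summed level in CPM (vertical axis, own scale for each list) of 6 gene lists in the 2 libraries of each group. Points are libraries. The fibroblast or mesenchyme list drops from 2002 and 2059 CPM in NTC libraries to 189 and 197 CPM in knock-down libraries, and the pluripotent list is highest in mESC.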

How the data were processed

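Poly(A) RNA-seq of 8 libraries in 4 groups of 2 was analysed. The authors deposited whole-number read counts per RefSeq transcript, unscaled as judged from the values. Per the submitters' processing notes, BWA 0.5.9, SAMtools 0.1.17 and edgeR 0.19 were named without roles. For the genome build, the counting program and the strand, the answer is the same: not given in the sources used here. Of 29614 transcript rows, 28985 were named by a RefSeq table, 173 by GENCODE vM21 and 456 kept their accession. The row with the highest total stood for each gene, since rows of a gene share reads.

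Counts were filtered (filterByExpr), scaled by TMM and tested in edgeR 4.0.16 (R 4.3.3) with 1 mean per group over all 8 libraries, robust quasi-likelihood tests, 4 residual degrees of freedom and Benjamini-Hochberg adjustment at 0.05. Each standard error was the log2 value divided by the root of its F statistic. The spread is thus shared by all groups, including mESC and untreated Sca1, whose replicates had the larger chi-square values. Where a group held 0 counts the fold given used 3 counts over the group, without allowance for counting error in the other group. With 1 to 3 counts an exact binomial interval was used (scipy 1.17.1). Levels per kb used GENCODE transcript lengths. Code was tested on simulated data.

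Groups came from the labels' construct and cell type. The genes and the companion and marker lists were chosen with earlier results of these data known. Named genes were all members, Setd7, Ly6a, the 3 most similar genes of each member (1 is not reported here), and from each list up to 4 genes with the smallest p in untreated Sca1 against mESC and in knock-down against NTC. Cspg4, Emcn, Sox18, Hba-x, Col6a4, Col6a5 and Col6a6 were named after their values were seen. Alternatives were RLE factors, library totals, DESeq2 1.42.0, no filter, a 5 CPM filter, the compared groups only, the lowest-total row, the description number as block, Spearman for Pearson, and each library left out.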

Additional observations from a re-analysis of the deposited data

How the results depend on the processing

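Of the members' log2 fold changes under the alternatives, 441 kept their direction and their side of the threshold, 24 kept the direction but no longer passed, 3 newly passed and 3 reversed. The reversals were Col6a2 in knock-down against untreated Sca1 cells when untreated Sca1 replicate 1 was left out (0.596; -0.997 to 0.596 over all libraries left out), and Col18a1 in knock-down against NTC cells when NTC replicate 1 (0.050) or knock-down replicate 2 (0.02) was left out (-0.16 to 0.050 over all). None of these passed the test in any of the settings. The 3 that newly passed were all Col8a1 in NTC against untreated Sca1 cells, at edgeR adjusted p = 0.0407 with the compared groups only, and 0.0303 and 0.0306 without mESC replicate 1 or 2.

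In NTC against untreated Sca1 cells, 3 members passed, against 1 with DESeq2, which gave no adjusted p to the other 4, and 1 with the replicate block. All genes called there were 697, against 1148 with no filter and 1261 with the replicate block. The block used the number in the sample descriptions. Deviations of same-numbered libraries correlated at 0.26 between mESC and untreated Sca1 cells and 0.05 between NTC and knock-down cells, and with 2 pairs each the numbers are taken as shared numbers only. For knock-down against NTC cells 1998 genes were called, against 1278 with DESeq2 and 4416 with the compared groups only, a fit that leaves out the mESC and untreated libraries. For knock-down against untreated Sca1 cells 2406 were called, against 1538 with DESeq2. For the other moves the cause was not tested.

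With each library left out in turn, a group of 1 library being assumed to vary like the others, members called ranged from 4 to 5 in untreated Sca1 against mESC, 3 to 4 in knock-down against NTC, 0 to 4 in NTC against untreated Sca1, 1 to 3 in knock-down against mESC, 3 to 4 in knock-down against untreated Sca1, and 5 to 5 in NTC against mESC. All genes called ranged, in that order, from 3777 to 5695, 648 to 2826, 57 to 1517, 1844 to 4271, 796 to 3292 and 2906 to 5267.

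Scaling by library totals only moved the median of all genes to 0.10 in NTC against untreated Sca1 cells and 0.12 in NTC against mESC. It moved the split of higher and lower calls from 594 and 1404 to 259 and 1154 in knock-down against NTC, from 542 and 155 to 493 and 18 in NTC against untreated Sca1, from 1884 and 1731 to 1906 and 1071 in knock-down against mESC, from 1025 and 1381 to 852 and 882 in knock-down against untreated Sca1, and from 2738 and 2160 to 2912 and 1209 in NTC against mESC. No member changed its call under it. By Spearman in place of Pearson correlation, 0, 0, 1, 1 and 0 of the 3 most similar genes stayed nearest to Col6a1, Col6a2, Col6a3, Col8a1 and Col18a1. Depth limits Col6a1, Col6a3, Col8a1 and Col15a1, which had 0 to 5 counts in each mESC or knock-down library. It also limits Col6a2 in mESC, with 3 and 1 counts.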
